A study of Mus musculus with 30 samples.

Results

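The 9 regulators of alternative splicing described here were followed through sorted mouse T cells with and without Prmt5. These were the 3 muscleblind genes Mbnl1, Mbnl2 and Mbnl3, the CELF genes Celf1 and Celf2, the polypyrimidine tract binding genes Ptbp1 and Ptbp3, and the genes of the KH-domain proteins SAM68 and Quaking, Khdrbs1 and Qk. All 9 were found by symbol in each of the 3 deposited count tables, which list 47348 symbols between them. The 9 were selected on their counts in these same libraries, with the contrast of knockout against wild type already known. Their values in that contrast are therefore a description, and the adjusted p-values beside them only place each gene within the fit over all genes.

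Muscleblind and CELF proteins bind pre-mRNA near regulated exons and often have opposing effects on the same exon, a relation best described in muscle and heart and in myotonic dystrophy. PTB proteins bind pyrimidine-rich stretches and mostly repress exons, while SAM68 and Quaking bind short RNA motifs through a KH-type domain and also act on RNA stability and export. PRMT5 methylates arginines of spliceosomal Sm proteins and of other RNA-binding proteins. Counts per gene, as used here, measure the amount of each regulator's RNA and say nothing of which exons were included.

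RNA was sequenced from T cells sorted by flow cytometry, from knockout mice (CKO; C57BL/6, CD4-Cre with both Prmt5 alleles floxed) and wild-type mice (WT; C57BL/6). The 30 libraries covered 5 populations with 3 CKO and 3 WT libraries each, namely thymic CD4+ CD8+ double-positive cells (DP), thymic CD4 and CD8 single-positive cells (CD4 SP, CD8 SP), and splenic CD4 and CD8 T cells. CD4-Cre acts in developing T cells, so the splenic cells come from precursors that already carried active Cre. Ages are not given, and with no Cre-only group the loss of Prmt5 and the presence of Cre cannot be told apart. By the mouse numbers of the labels, thymus DP and CD4 SP libraries with the same number came from the same mouse, as did both spleen libraries. In thymus CD8 SP what the replicate numbers link is not stated, and p-values there measure the spread between these libraries only.

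Total counts ran from 11865646 to 35353441 per library. Prmt5 was lower in all 3 CKO than in all 3 WT libraries of every population, with a log2 fold change of -0.31 in thymus CD8 SP and of -1.09 to -0.87 in the other 4 populations. T cell markers were found in every library. The 6 of them summed to 1434 to 1563 CPM in thymus CD8 SP and to more in every library of the other populations. The 7 markers of the double-positive stage summed to 6108 to 7819 CPM in CKO and 6598 to 7874 CPM in WT libraries of thymus DP. They still summed to 437 to 5195 CPM in CKO and 2253 to 3969 CPM in WT libraries of thymus CD4 SP. In thymus CD8 SP they summed to 2364 to 2597 CPM in CKO and 2128 to 2382 CPM in WT libraries. Their part in the member values of both single-positive populations was not tested. Sex is not in the labels. By the Y-linked gene Ddx3y, thymus DP and CD4 SP each held 1 male mouse per genotype (CKO 17 and WT 18), all spleen libraries were female, and in thymus CD8 SP CKO 1 and all 3 WT libraries were male while CKO 2 and CKO 3 were female. The library CKO 14 of thymus CD4 SP stood apart from the rest and is described with its values further on. Levels are CPM, counts scaled to library size by the trimmed mean of M-values within each table. Fold changes are log2, CKO over WT, ± standard error (SE), and a gene is called at an adjusted p under 0.05 in edgeR's quasi-likelihood test over all genes tested. In bulk RNA fewer cells of a type and less RNA per cell cannot be told apart.

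**Figure D1:**
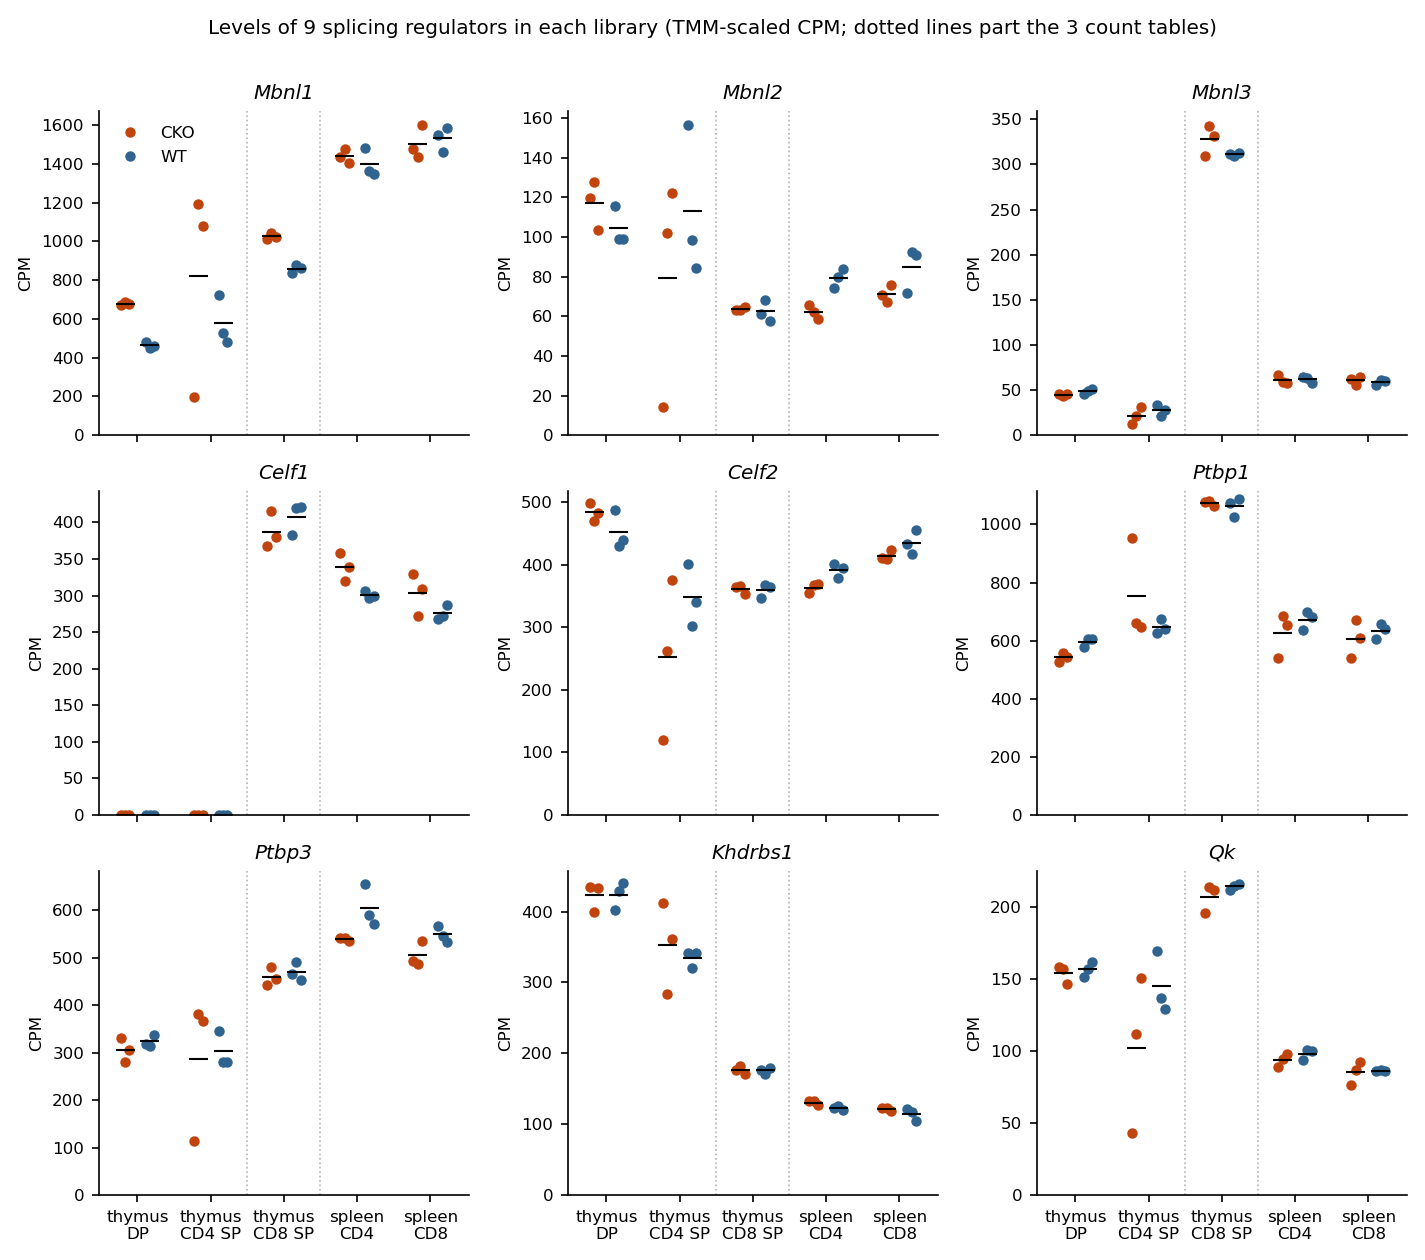
Level of each of the 9 regulators in every library, in CPM on a linear axis from 0, for 5 populations, with CKO left of WT and a black line at the mean of 3 libraries. Mbnl1 is higher in CKO in thymus DP and CD8 SP, CKO 14 of thymus CD4 SP lies at 195 CPM, and Celf1 is at 0 to 2 reads in the table of thymus DP and CD4 SP.

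Mbnl1, per kb of exon the most abundant muscleblind gene in WT libraries of every population, was higher in CKO than in WT libraries of thymus DP and thymus CD8 SP, while the genotypes overlapped in thymus CD4 SP and in the spleen. In thymus DP it stood at 673, 686 and 678 CPM in CKO libraries and at 481, 447 and 461 CPM in WT libraries. All 3 CKO libraries lay above all 3 WT libraries, with CKO at 679 ± 6.55 and WT at 463 ± 17.1 CPM (SD, n = 3 each). The fit gave a log2 fold change of 0.56 ± 0.06 (adjusted p = 0.00823, edgeR), an increase of 47.0%. Mbnl1 was the single member called among the 8 tested in thymus DP, where 0.0258% of all 11634 genes tested were called in either direction and 0.0172% as higher, and where the genotypes did not overlap at 12.1% of genes. Since the list was drawn up with this contrast known, nothing is read from that count. The difference was present within both sexes, with a log2 ratio of means of 0.62 between the male libraries (1 CKO, 1 WT) and 0.52 between the female ones (2 CKO, 2 WT). The call did not hold in all settings: without WT 18, WT 24 or CKO 14 the log2 fold change was 0.53, 0.55 and 0.56 with an adjusted p of 0.134, 0.0773 and 0.134, and with the thymus CD4 SP libraries in the same fit the adjusted p was 1 at an SE of 0.48.

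In thymus CD8 SP, Mbnl1 stood at 1014, 1041 and 1022 CPM in CKO libraries and at 835, 876 and 865 CPM in WT libraries. The groups did not overlap, at 1026 ± 13.7 CPM in CKO and 858 ± 21.4 CPM in WT (SD, n = 3 each), and the difference was smaller than in thymus DP on the log2 scale. The fold change was 0.25 ± 0.04 (adjusted p = 0.0315, edgeR), an increase of 19.2%. It was again the single member called, of 9 tested, and the single one without overlap, against 0.114% of all 14911 genes called in either direction, 0.0335% called as higher and 15.4% without overlap. CKO 1, the male CKO library, gave a log2 ratio of 0.24 to the mean of the 3 male WT libraries. With sex in the fit the log2 fold change was 0.24 ± 0.05 (adjusted p = 0.315), and the call was also lost without WT 2, WT 3, CKO 2 or CKO 3 (adjusted p = 0.114, 0.0652, 0.110 and 0.0805).

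In thymus CD4 SP, Mbnl1 was spread widely among CKO mice, at 195 CPM in CKO 14, 1194 CPM in CKO 17 and 1078 CPM in CKO 23, against 724, 528 and 480 CPM in WT libraries. CKO 17 and CKO 23 lay above every WT library and CKO 14 below every WT library. Over all 6 libraries the log2 fold change was 0.51 ± 0.60 with a 95% interval of -0.92 to 1.93 (adjusted p = 0.958), and without CKO 14 it was 0.96 ± 0.20 (adjusted p = 0.387). Double-positive stage markers summed to 437 CPM in CKO 17, 2444 CPM in CKO 23 and 5195 CPM in CKO 14. The WT libraries had 2253 to 3969 CPM, so CKO 23 lay within their range. Markers of mature or naive cells were also highest in CKO 14, at 7145 CPM. Their part in the Mbnl1 values was not tested.

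In the spleen the genotypes overlapped. Mbnl1 stood at 1437, 1478 and 1403 CPM in CKO and 1480, 1361 and 1349 CPM in WT CD4 cells, a log2 fold change of 0.05 ± 0.07 (95% interval -0.10 to 0.19). In CD8 cells it stood at 1474, 1437 and 1601 CPM in CKO and 1549, 1461 and 1584 CPM in WT, a log2 fold change of -0.02 ± 0.06 (95% interval -0.16 to 0.13). The 95% interval was 0.42 to 0.69 in thymus DP, above both spleen intervals, and 0.17 to 0.33 in thymus CD8 SP, which overlaps that of spleen CD4. The thymus and spleen libraries are in separately counted tables, and the difference between these effects was not tested.

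**Figure D2:**
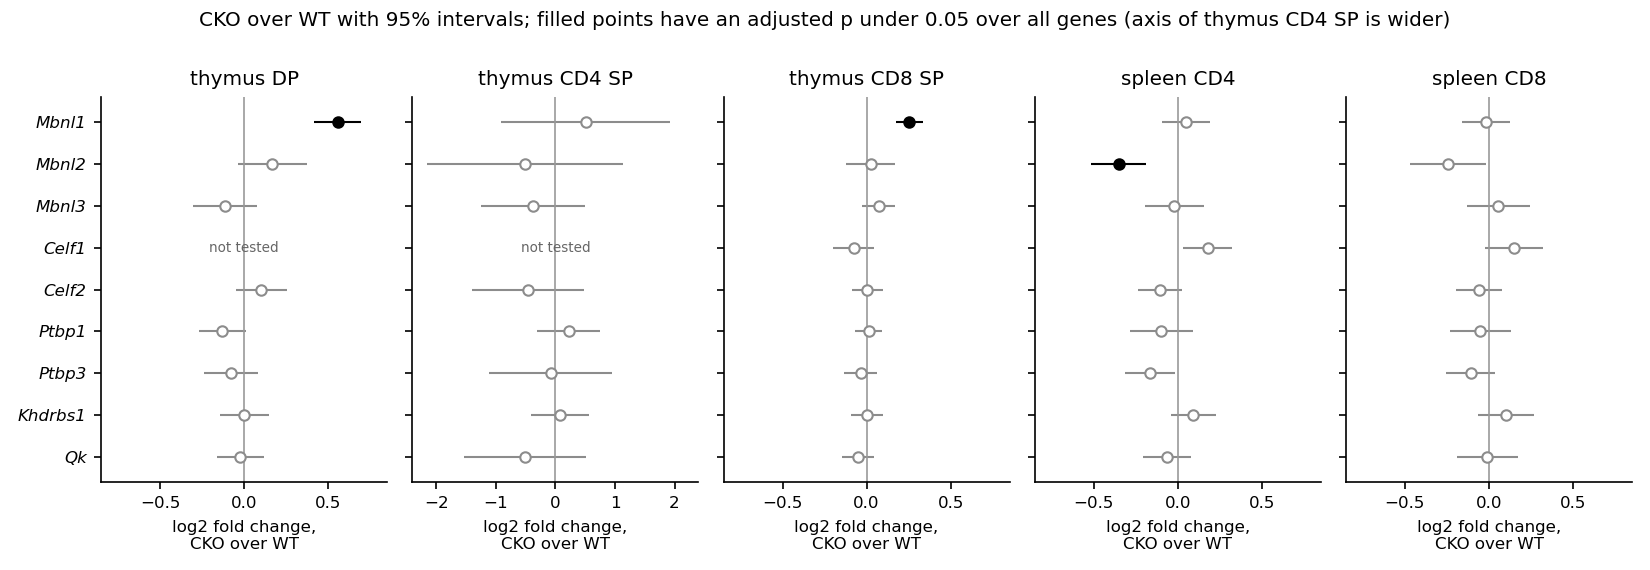
Log2 fold change of each regulator, CKO over WT, in 5 populations, with bars for the 95% interval and filled points for an adjusted p under 0.05. Mbnl1 is called higher in thymus DP (0.56) and thymus CD8 SP (0.25), Mbnl2 is called lower in spleen CD4 (-0.35), and the thymus CD4 SP intervals span both sides of 0 on a wider axis.

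Mbnl1 lies on chromosome 3 at 60472559 to 60629750 (GRCm38.p6, RefSeq), and the annotated pseudogene Gm33707 lies 139.8 kb beyond it, at 60769583 to 60771638. Gm33707 had 1909, 1087 and 1182 reads in CKO and 0, 0 and 1 reads in WT libraries of spleen CD4. Thymus CD8 SP had 91, 80 and 55 reads of it in CKO and 1, 0 and 0 reads in WT libraries. In spleen CD8 it had 1, 0 and 2 reads in CKO and 1, 0 and 1 reads in WT libraries. Reads at Gm33707 were thus found almost only in CKO libraries and in 2 of the 3 populations where the symbol is listed, since the table of thymus DP and CD4 SP does not list it. Spleen CD4 had the most Gm33707 reads and overlapping Mbnl1 levels, while thymus CD8 SP had few and separated Mbnl1 levels. Spleen CD8 had hardly any in either genotype and overlapping Mbnl1 levels. In thymus DP, where Mbnl1 was called higher, Gm33707 could not be set beside it. Whether the locus bears on Mbnl1 was not tested. The strand setting of the counting is not given, so reads from either strand of Mbnl1 cannot be told apart.

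Within 1 Mb of Mbnl1 or Gm33707, the genotypes differed past the threshold at 0 of 2 other genes tested in thymus DP, 0 of 5 in thymus CD8 SP, 0 of 4 in spleen CD4 and 1 of 3 in spleen CD8. Those with a functional name were P2ry1, a nucleotide receptor gene 373 kb away, and Rap2b, a small GTPase gene 735 kb away. Rap2b stood at 56.2, 48.4 and 54.4 CPM in CKO and 69.2, 60.0 and 66.4 CPM in WT libraries of spleen CD8, without overlap (log2 fold change -0.29 ± 0.09, adjusted p = 0.0446, edgeR). Its CKO libraries also lay below the WT libraries in spleen CD4, at 64.4, 59.4 and 63.4 against 69.4, 71.9 and 72.4 CPM, not called. Of all genes tested, 35.5% in spleen CD8 and 33% in spleen CD4 did not overlap. In thymus DP the fold change of Rap2b was 0.07 ± 0.10 and that of P2ry1 was -0.28 ± 0.29, neither called. The other tested symbols in the window were the annotated pseudogenes Gm5539, Gm8325 and Gm8349 and the protein-coding gene model Gm5709, none of them called. Within 5 Mb, 0 of 23 genes were called in thymus DP, 0 of 30 in thymus CD8 SP, 3 of 25 in spleen CD4 (1 higher) and 3 of 22 in spleen CD8 (all lower), the spleen counts beside 14.2% and 16.1% of all genes tested.

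**Figure D3:**
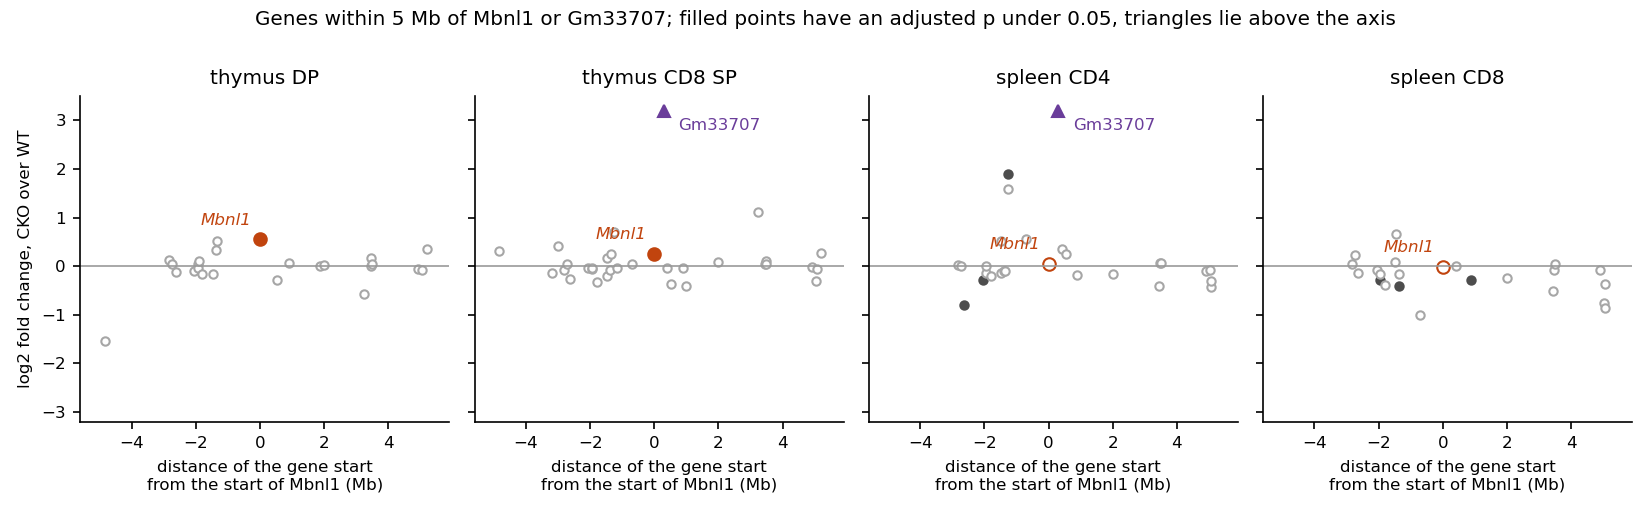
Log2 fold change, CKO over WT, of every tested gene within 5 Mb of Mbnl1 or Gm33707 against the distance of its start from the start of Mbnl1, in 4 populations. Filled points have an adjusted p under 0.05, the triangle marks Gm33707 above the axis, and Mbnl1 is filled in thymus DP and CD8 SP and open in the spleen.

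Mbnl2, the second muscleblind gene, was called lower in CKO libraries of spleen CD4 and in no other population. In spleen CD4 it stood at 65.5, 62.3 and 58.4 CPM in CKO libraries and 74.4, 79.9 and 83.6 CPM in WT libraries. Every CKO library lay below every WT library, with CKO at 62.1 ± 3.57 and WT at 79.3 ± 4.63 CPM (SD, n = 3 each). The fold change was -0.35 ± 0.08 (adjusted p = 0.00929, edgeR), a fall of 21.6%, and without WT 71 it was -0.31 (adjusted p = 0.0530). Mbnl2 was the single member called of 9 tested in spleen CD4, where 14.2% of all 14292 genes were called, 5.63% of all as lower. In spleen CD8 it stood at 70.6, 67.4 and 75.9 CPM in CKO and 71.9, 92.3 and 91.0 CPM in WT libraries. WT 67 lay among the CKO libraries, and the fold change of -0.25 ± 0.10 was not called (adjusted p = 0.132), although it was called without that library (-0.36, adjusted p = 0.0317) and with no filter on low counts (adjusted p = 0.0492). The difference of the CKO effect between spleen CD8 and spleen CD4 was 0.10 ± 0.13 (95% interval -0.18 to 0.38) and was not called. Myeloid markers were higher in CKO libraries of both spleen populations. All 8 summed to 103 to 249 CPM in CKO and 61.9 to 92.4 CPM in WT libraries of spleen CD4. In spleen CD8, where Mbnl2 was not called, they summed to 30.2 to 57.4 CPM in CKO and 13.6 to 22.3 CPM in WT libraries. None of them was at 0 in any of these libraries, and their part in the Mbnl2 difference was not tested.

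In thymus DP, Mbnl2 stood at 120, 128 and 104 CPM in CKO and 116, 99.1 and 98.8 CPM in WT libraries, which overlapped. It stood at 63.3, 63.1 and 64.5 CPM in CKO and 61.4, 68.4 and 57.5 CPM in WT libraries of thymus CD8 SP, also overlapping. Neither was called, with log2 fold changes of 0.17 ± 0.09 and 0.02 ± 0.07. In thymus CD4 SP CKO 14 had 14.1 CPM, the other CKO libraries 102 and 122 CPM, and the WT libraries 156, 98.6 and 84.5 CPM.

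Mbnl3, the X-linked muscleblind gene, did not differ between genotypes past the threshold in any population. Its log2 fold change was -0.12 ± 0.09 in thymus DP and 0.07 ± 0.04 in thymus CD8 SP. It was -0.02 ± 0.08 in spleen CD4 and 0.06 ± 0.08 in spleen CD8. The higher CKO values in thymus CD8 SP were those of the female libraries, at 342 and 331 CPM in CKO 2 and CKO 3, against 310 CPM in the male CKO 1 and 312, 309 and 313 CPM in the male WT libraries. With sex in the fit the log2 fold change there was -0.01 ± 0.06. Since all WT libraries there were male, that fit estimates sex from the CKO libraries alone. The part of sex in the Mbnl3 values was not tested.

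The level of Mbnl3 set thymus CD8 SP apart from the other tables. It averaged 328 ± 16.7 CPM in CKO and 311 ± 1.95 CPM in WT libraries of thymus CD8 SP, while in each other population its library values lay between 12.1 and 66.1 CPM. Markers of dividing cells were also highest in that population, where the 8 of them summed to 5291 to 5531 CPM in CKO and 4710 to 5203 CPM in WT libraries, against at most 3352 CPM in any other library. Their part in the level of Mbnl3 was not tested, and because the tables were counted separately the level was set across them without a test.

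Both CELF genes encode proteins that bind GU-rich RNA and also act on mRNA decay. Celf1 could not be measured in thymus DP and CD4 SP: it had 0 to 2 reads per library and 3 reads in all 12, against 10958 to 14375 reads per library in thymus CD8 SP. In the 10 libraries with no read, the count of 0 allowed at most 0.161 to 0.25 CPM by the rule of 3 counts, which covers counting error only. Its neighbours Kbtbd4 and Ndufs3 were missing in the same way, at 0 to 1 reads against 983 to 1797 reads. Of 5486 symbols with at least 1000 reads in every thymus CD8 SP library and listed in both tables, 41 had at most 10 reads over those 12 libraries, so Celf1 is given no level there.

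Where it was measured, Celf1 was not called. In spleen CD4 it stood at 358, 320 and 339 CPM in CKO and 306, 296 and 299 CPM in WT libraries, without overlap, with a log2 fold change of 0.18 ± 0.07 (95% interval 0.03 to 0.32, adjusted p = 0.0987). In spleen CD8 it stood at 329, 272 and 309 CPM in CKO and 268, 272 and 287 CPM in WT libraries, and the log2 fold change was 0.15 ± 0.08 (adjusted p = 0.232). The log2 fold change in thymus CD8 SP was -0.08 ± 0.06, or -0.15 with sex in the fit, and the groups overlapped.

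Celf2, the CELF gene most studied in T cells, stood at 355, 367 and 369 CPM in CKO and 401, 378 and 395 CPM in WT libraries of spleen CD4. The groups did not overlap, and the difference was not called (log2 fold change -0.11 ± 0.06, adjusted p = 0.282). In the other populations its log2 fold change was 0.10 ± 0.07 in thymus DP, 0.0046 ± 0.042 in thymus CD8 SP and -0.06 ± 0.06 in spleen CD8, none of them called.

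Neither PTB gene was called between genotypes in any population. Ptbp1, which represses many exons that are used in neurons, stood at 525, 558 and 545 CPM in CKO and 580, 604 and 604 CPM in WT libraries of thymus DP. The CKO libraries lay below the WT libraries, with a log2 fold change of -0.13 ± 0.06 (adjusted p = 0.718). In thymus CD8 SP it averaged 1074 ± 8.95 CPM in CKO and 1062 ± 31.8 CPM in WT libraries, and in the spleen CKO 65 was the lowest library of both populations, at 539 CPM in CD4 and 541 CPM in CD8 cells. Ptbp3, the family member also known as ROD1, stood at 542, 542 and 535 CPM in CKO and 656, 591 and 571 CPM in WT libraries of spleen CD4. Those groups did not overlap and the difference was not called (-0.17 ± 0.07, adjusted p = 0.134). In spleen CD8 the Ptbp3 difference was -0.11 ± 0.07 with overlapping groups.

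Khdrbs1, the gene of SAM68, an RNA-binding protein that is phosphorylated by Src-family kinases, stood at 132, 133 and 127 CPM in CKO and 123, 126 and 120 CPM in WT libraries of spleen CD4. The CKO libraries lay just above the WT libraries, with a log2 fold change of 0.09 ± 0.06 (adjusted p = 0.363). Qk, whose product Quaking is known for its part in myelination and in circular RNA formation, overlapped between genotypes in all 5 populations. Its log2 fold changes ran from -0.06 in spleen CD4 to -0.01 in spleen CD8, leaving out thymus CD4 SP, and in thymus CD8 SP the value of -0.05 became -0.13 with sex in the fit.

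In spleen CD4, 5 of the 9 members thus had genotypes that did not overlap, Celf1 and Khdrbs1 with CKO above and Mbnl2, Celf2 and Ptbp3 with CKO below, where 33% of all genes tested did not overlap. In spleen CD8 no member separated the genotypes and 0 of 9 were called, against 35.5% without overlap and 16.1% called among all 13917 genes tested. The median log2 fold change of the members was -0.06 in spleen CD4 and -0.02 in spleen CD8, beside -0.01 and -0.01 over all genes tested. No member's CKO effect differed past the threshold between spleen CD8 and spleen CD4 (0 of 9, against 2.56% of all 14958 genes). Between thymus CD4 SP and thymus DP none was called either (0 of 8, against 0% of all 12216 genes). Equal effects cannot be read from this, since the spread was wide. For Mbnl1 the difference, CD4 SP minus DP, was -0.05 ± 0.67 (95% interval -1.53 to 1.43). Without CKO 14 of CD4 SP it was 0.42 ± 0.20 and not called. Neither interaction fit had a term for the mouse. With the animal as a block the spleen interaction called 1083 genes instead of 383.

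CKO 14 of thymus CD4 SP set the values of most members in that population. Beside the low Mbnl1 and Mbnl2 it had 12.1 CPM of Mbnl3, 120 CPM of Celf2, 114 CPM of Ptbp3 and 42.8 CPM of Qk, each the lowest of the 6 libraries. The other 5 libraries had 20.8 to 33.0 CPM of Mbnl3, 262 to 401 CPM of Celf2, 281 to 382 CPM of Ptbp3 and 112 to 170 CPM of Qk. Ptbp1 and Khdrbs1 were highest in it, at 952 and 411 CPM, against 628 to 674 CPM and 284 to 362 CPM in the others. The 6 T cell markers summed to 7417 CPM in CKO 14 and 3136 to 4058 CPM in the other 5 libraries, and the 3 coreceptor genes to 5922 CPM in it and 1207 to 3499 CPM in the others. Across all genes the library showed a dependence on transcript length: relative to the WT libraries, the median log2 ratio was 0.57 in the shortest of 5 equal groups of genes by exonic length and -0.54 in the longest. The difference between these groups was -1.10 in CKO 14 and lay between -0.26 and 0.32 in the other 5 libraries. Its part in the member values was not tested, and the length comparison was added after the data were seen. None of the 8 members tested was called in thymus CD4 SP, with or without CKO 14, and 0 of 8 separated the genotypes, as 10.1% of all genes did. Over all 11839 genes 0% were called by edgeR there, with 306 genes at an unadjusted p under 0.05, 1 call by DESeq2 and 0 by limma voom.

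**Figure D4:**
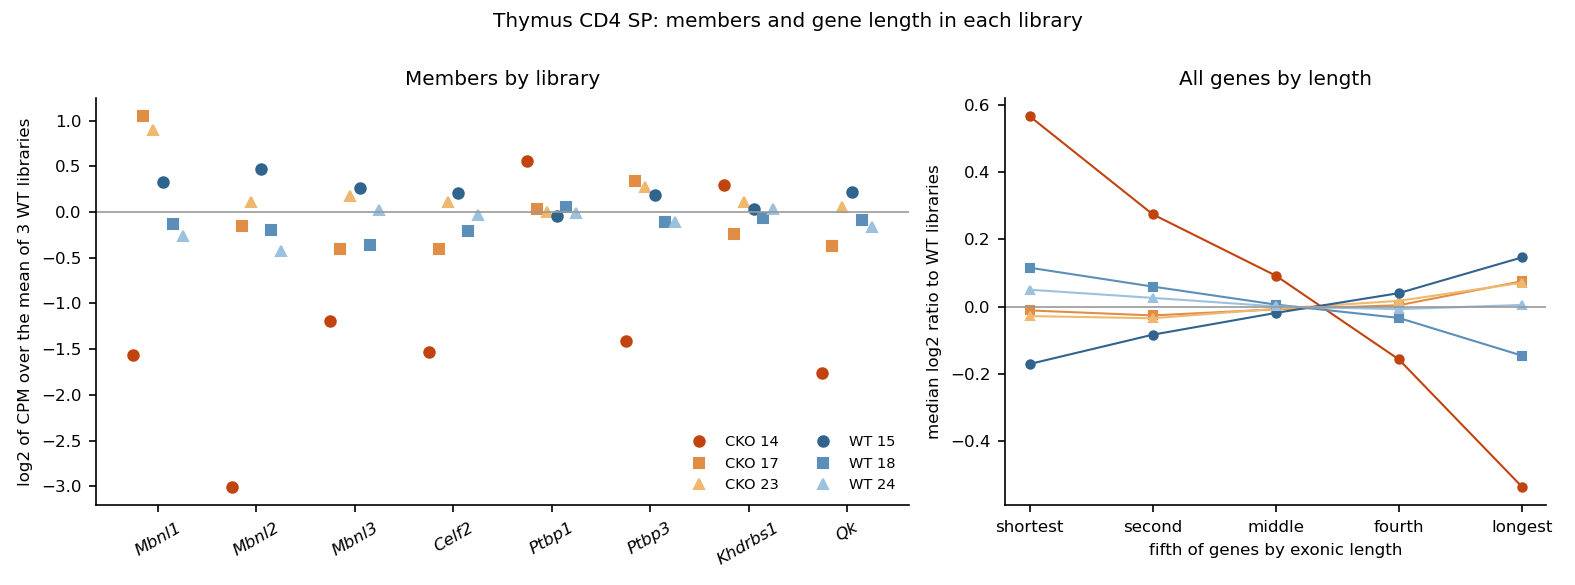
Thymus CD4 SP libraries, CKO in orange and WT in blue. The left panel gives the log2 ratio of each regulator to the mean of 3 WT libraries, and the right panel the median log2 ratio of all genes in 5 equal groups by exonic length, which runs from 0.57 to -0.54 in CKO 14.

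Within WT mice 3 members were lower in CD4 SP than in DP thymocytes. Mbnl3 averaged 27.5 ± 5.85 CPM in CD4 SP and 48.4 ± 3.25 CPM in DP cells (SD, n = 3 each), a log2 fold change of -0.81 ± 0.15 (adjusted p = 9.14e-04, edgeR). Celf2 was lower as well, at 348 ± 49.7 CPM in CD4 SP and 452 ± 31.2 CPM in DP cells (-0.37 ± 0.12, adjusted p = 0.0237). Khdrbs1 averaged 335 ± 12.4 CPM in CD4 SP and 424 ± 19.5 CPM in DP cells (-0.33 ± 0.09, adjusted p = 0.0129). These 3 of 8 members were called lower and none higher, where 39.8% of all 11826 genes were called, 18.1% as lower, so the share called in either direction was close to that of all genes. Mbnl1 averaged 577 ± 129 CPM in CD4 SP and 463 ± 17.1 CPM in DP cells (0.33 ± 0.14, adjusted p = 0.0831), and with the animal as a block it was called higher (0.30 ± 0.11, adjusted p = 0.0329). Without CD4 SP WT 15 the log2 fold change of Mbnl1 was 0.12 (adjusted p = 0.391), and without CD4 SP WT 24 it was 0.43 (adjusted p = 0.0171). The call of Celf2 was lost without DP WT 15 (adjusted p = 0.0693) or CD4 SP WT 18 (adjusted p = 0.0790).

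In WT spleen, Qk averaged 86.6 ± 0.372 CPM in CD8 and 98.3 ± 3.74 CPM in CD4 cells (SD, n = 3 each), a log2 fold change of -0.19 ± 0.06 (adjusted p = 0.0220, edgeR). The lowest CD4 value was 94.1 CPM and the highest CD8 value 87.0 CPM, so the populations did not overlap. It was the single member called of 9, where 31.9% of all 14131 genes were called, 16.5% as lower, and the call was lost without the CD4 library of WT 70 or WT 71 or the CD8 library of WT 70 or WT 71 (adjusted p = 0.0598 to 0.0898). Celf2 averaged 435 ± 19.1 CPM in CD8 and 391 ± 12.1 CPM in CD4 cells and Ptbp3 549 ± 16.1 CPM in CD8 and 606 ± 44.1 CPM in CD4 cells. Neither passed the threshold, at 0.14 ± 0.06 (adjusted p = 0.0750) and -0.15 ± 0.06 (adjusted p = 0.0907), though Celf2 was called with the animal as a block (adjusted p = 0.0492). The members with the smallest differences were Mbnl3 (-0.08 ± 0.07), Ptbp1 (-0.09 ± 0.06) and Mbnl2 (0.09 ± 0.09), but without the CD8 library of WT 67 Mbnl2 was called higher in CD8 cells (0.21, adjusted p = 0.0422).

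Set against exonic length, as CPM per kb of the GENCODE M21 exon union, Mbnl1 and Ptbp1 were the leading members in the spleen and Ptbp1 in the thymus. In WT spleen CD4 the level was 241 ± 12.5 for Mbnl1, 195 ± 9.04 for Ptbp1, 83.6 ± 6.09 for Ptbp3 and 40.3 ± 1.25 for Celf2. It was 37.1 ± 0.611 for Celf1, 32.8 ± 0.824 for Khdrbs1, 16.7 ± 0.976 for Mbnl2, 11.9 ± 0.747 for Mbnl3 and 7.14 ± 0.271 CPM per kb for Qk. No neighbours in that order overlapped, and in spleen CD8 the order was the same, again with no overlap between neighbours. In WT thymus DP the order was Ptbp1 (173 ± 4.08), Khdrbs1 (113 ± 5.21), Mbnl1 (79.8 ± 2.94), Celf2 (46.5 ± 3.21), Ptbp3 (44.7 ± 1.75), Mbnl2 (22.0 ± 2.05), Qk (11.4 ± 0.385) and Mbnl3 (9.30 ± 0.623 CPM per kb), and the ranges of Celf2 and Ptbp3 overlapped. In WT thymus CD8 SP Ptbp1 (308 ± 9.21 CPM per kb) and Mbnl1 (148 ± 3.68) led, Mbnl3 (59.7 ± 0.374) ranked next to Ptbp3 (64.8 ± 2.65), and Celf1 (50.4 ± 2.76) overlapped Khdrbs1 (47.0 ± 1.22).

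The genes whose levels followed the muscleblind genes most closely are given as a description over libraries that share tables, mice and depth. Over the 12 spleen libraries, Pearson's r of log2(CPM + 1) was highest between Mbnl2 and Nupl2 (0.96), Tm9sf2 (0.94) and Zfp84 (0.92), of 9101 genes compared. For Mbnl1 the highest were Wdr3 (0.88), Abce1 (0.87) and Mb21d1 (0.87), and for Mbnl3 the 3 closest included Strn (0.85) and Gdpgp1 (0.84). Over the 12 libraries of thymus DP and CD4 SP, Map3k7 (0.95), Rabgap1 (0.95) and Dennd1b (0.94) were closest to Mbnl1, Rb1cc1 (0.99), Rsbn1l (0.99) and Osbpl8 (0.99) to Mbnl2, and N4bp2 (0.98), C1galt1 (0.98) and Mia2 (0.98) to Mbnl3. These 12 libraries span DP and CD4 SP cells, between which Mbnl3 differed in WT mice. How many genes were like Mbnl2 and Mbnl1 depended on CKO 14 of CD4 SP. For Mbnl2 1044 genes reached an r of at least 0.9 over 12 libraries and 2 did so without it, for Mbnl1 47 and 7, and for Mbnl3 362 and 551. Without it the 3 genes named for Mbnl1 had an r of 0.89 each, and those for Mbnl2 of 0.89 to 0.93.

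Other splicing regulators gave the wider setting in the spleen. Of 85 genes in 5 lists, chosen with earlier results known, 72 were tested in spleen CD4, with 11 higher and 5 lower (22.2% called), and 73 in spleen CD8, with 10 higher and 3 lower (17.8% called), beside 14.2% and 16.1% of all genes. None of the 74 to 76 tested was called in thymus DP, CD4 SP or CD8 SP. Hnrnph3, of the hnRNP H family of exon regulators, had the smallest p-value of its list in both spleen populations. It stood at 95.2, 102 and 87.5 CPM in CKO and at 46.5 to 53.2 CPM in the 3 WT libraries of spleen CD4, without overlap (0.93 ± 0.08, adjusted p = 2.93e-05), and its log2 fold change in spleen CD8 was 0.89 ± 0.09 (adjusted p = 1.52e-04). The other hnRNP gene that rose or fell was Hnrnpr in spleen CD4 (-0.31 ± 0.07, adjusted p = 0.0163), so that 22 of 24 hnRNP genes were not called there.

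Kinases that phosphorylate SR proteins, the serine- and arginine-rich splicing activators, were called for 3 of 6 in spleen CD4 and 1 of 6 in spleen CD8. Srpk1 stood at 15.4, 22.2 and 19.4 CPM in CKO and 10.2, 9.39 and 8.01 CPM in WT libraries of spleen CD4 (1.05 ± 0.15, adjusted p = 0.00102), and its log2 fold change in spleen CD8 was 0.46 ± 0.15 (adjusted p = 0.0551). Clk1, named here after its values were seen, was the third and fell by 0.30 on the log2 scale in spleen CD4 (SE 0.08, adjusted p = 0.0300). Clk2 was higher in both, by 0.69 ± 0.12 in spleen CD4 (adjusted p = 0.00257) and 0.43 ± 0.12 in spleen CD8 (adjusted p = 0.0301). Of the 13 SR protein genes 2 rose in spleen CD4, Srsf7 (0.35 ± 0.09, adjusted p = 0.0210) and Srsf4 (0.22 ± 0.06, adjusted p = 0.0352). In spleen CD8 3 rose, among them Srsf12 (0.84 ± 0.22, adjusted p = 0.0245) and Srsf7 (0.29 ± 0.08, adjusted p = 0.0257).

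Of 27 other RNA-binding regulators tested in spleen CD4, 6 were called higher and 3 lower. Of 28 tested in spleen CD8, 4 were called higher and 3 lower. Among them Tia1, which favours exons with weak splice sites, was higher in spleen CD4 (0.48 ± 0.08, adjusted p = 0.00257), as was Rbm5 (0.36 ± 0.07, adjusted p = 0.00409). In spleen CD8, Ilf2 rose (0.41 ± 0.09, adjusted p = 0.00934) and the RNA helicase gene Ddx17 fell by 0.35 on the log2 scale (SE 0.08, adjusted p = 0.0137). The relatives of the members were mostly too low to test, with 2 of 7 tested. Ptbp2 was not called in spleen CD4 (0.05 ± 0.07) or spleen CD8 (0.15 ± 0.10), and Celf5, at 42, 48 and 44 reads in CKO and 11, 12 and 4 reads in WT libraries of spleen CD8, was called higher there (2.31 ± 0.43, adjusted p = 0.00466) and not in spleen CD4 (-0.01 ± 0.42, adjusted p = 0.990). Whether any of these effects differed between spleen CD8 and spleen CD4 was tested in the same fit as above, and 0 of 73 were called. In spleen CD8 the 12 effector markers summed to 1148 to 1767 CPM in CKO and 504 to 710 CPM in WT libraries, the 8 markers of dividing cells to 325 to 480 CPM in CKO and 146 to 170 CPM in WT, and the 7 markers of naive cells to 3806 to 4067 CPM in CKO and 5038 to 5324 CPM in WT. No marker of these lists was at 0 in any of those libraries, and their part in the regulators' differences was not tested.

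**Figure D5:**
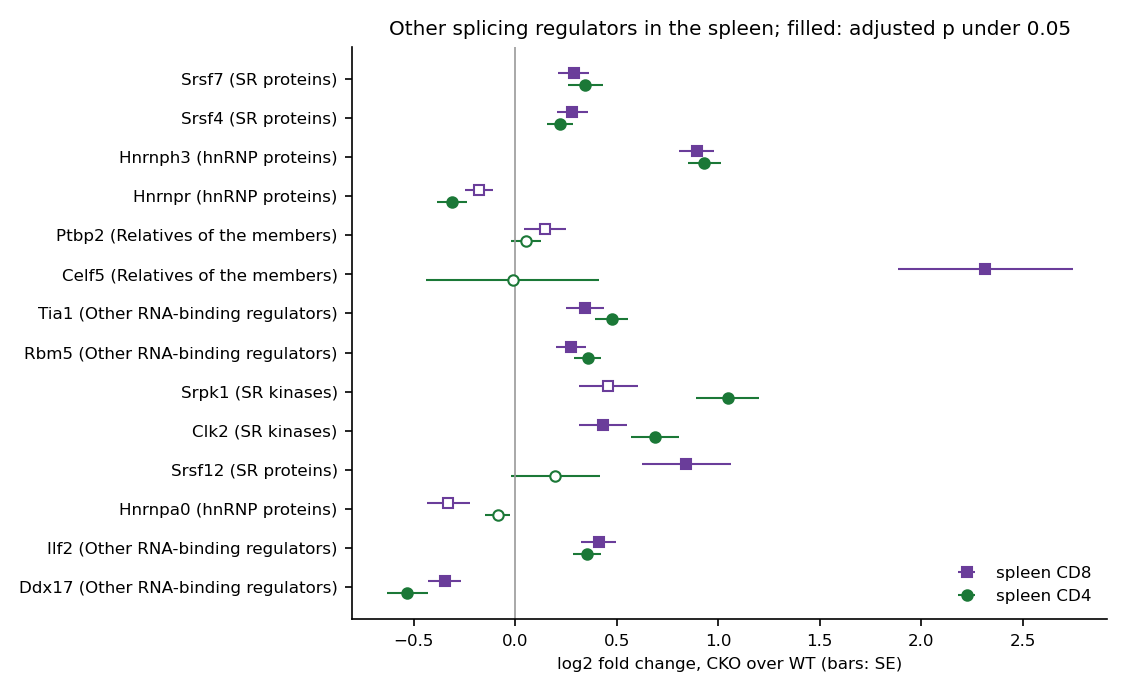
Log2 fold change, CKO over WT, of splicing regulators outside the 9 members, named by the smallest p-value of each list in either spleen population, with SE bars and filled symbols for an adjusted p under 0.05. Hnrnph3 lies at 0.93 in spleen CD4 and 0.89 in spleen CD8, and Srpk1 is filled in spleen CD4 and open in spleen CD8.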

How the data were processed

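The authors deposited raw read counts per gene in 3 tables, 1 for the spleen and 2 for the thymus, with CD8 SP apart from DP and CD4 SP. Per the submitters' processing notes, HISAT2, HTSeq and GRCm38 were used. The sources used here do not give versions, gene annotation or counting strand. Per the labels' protocols, a directional kit was used on poly(A) RNA. Tables list 21983 (thymus DP and CD4 SP) or 46095 symbols, so tests stayed within a table.

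Each comparison was fitted over all genes kept by filterByExpr (count minimum 10) with TMM scaling and the quasi-likelihood test of edgeR 4.0.16 (R 4.3.3), two-sided, Benjamini-Hochberg at 0.05. These main fits had no term for the mouse, also where libraries of 1 mouse were compared. An SE is the log2 fold change over the square root of F, and 95% intervals use the fit's degrees of freedom. In data simulated with the spread fitted to these libraries, the median estimate of the largest simulated increase lay near its set value. Changes as small as those called for the members were not simulated, so this check does not bear on their detection. Members and lists were chosen with earlier results of these data known. The text names all 9 members, Prmt5, tested genes within 1 Mb of Mbnl1 or Gm33707, the 2 smallest p-values per regulator list and spleen population, and the 3 genes most like each muscleblind gene with a mean of at least 5 CPM (log2 of CPM with a pseudocount of 1), 1 of which is not reported here. Locations are RefSeq GRCm38.p6. Sex was read from Ddx3y (above or below 50 CPM). By mouse number the labels pair DP libraries with those of CD4 SP, and the spleen populations with each other. Correlations of deviations within a mouse were 0.128 to 0.628 in the spleen and -0.25 to 0.353 in the thymus. Between mice of a genotype they were -0.516 to 0.0625 in the spleen and -0.253 to 0.247 in the thymus. The thymus ranges overlap, so the pairing there rests on the labels. No libraries agreed within sampling noise. Alternatives were DESeq2 1.42.0, its size factors, limma 3.58.1 voom, 2 other filters, sex, a block, 12 libraries in 1 fit and each library left out.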

Additional observations from a re-analysis of the deposited data

Results flagged for a closer look

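The pseudogene Gm33707, near Mbnl1, had a CKO effect that differed between the spleen populations, with a fitted difference of -11.06 on the log2 scale for CD8 minus CD4 (adjusted p = 0.0252, edgeR's interaction test). The fitted value depends on the handling of counts near 0 and is no measure of size: the reads were 1, 0 and 2 in CKO and 1, 0 and 1 in WT libraries of spleen CD8, and 1909, 1087 and 1182 in CKO and 0, 0 and 1 in WT libraries of spleen CD4. CKO 65, 68 and 72 are the same mice in both populations. Groups of 3 libraries were too small for a test of single outlying values.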

How the results depend on the processing

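Of 1051 member values recomputed under alternatives, 1009 kept their call or stayed uncalled within the SE of the main fit. A call was lost by 17 and gained by 13, and 12 uncalled values moved by more than that SE. Changes of sign were counted only for values called in either fit, and there were 0. Uncalled values could change sign, as Mbnl3 did in thymus CD8 SP, from 0.07 to -0.01 with sex in the fit. In thymus DP 3 genes were called, 14 by DESeq2 and 0 with 12 libraries in the fit, which also left 0 members. In thymus CD4 SP DESeq2 called 1 gene. In thymus CD8 SP 17 genes were called, 205 by DESeq2, 450 with no filter and 3 with the sex covariate. Members called higher there were 0 with the sex covariate and 0 with the replicate block (Mbnl1 at 0.25, adjusted p = 0.0589). CKO and WT libraries of the same number correlated at 0.0605 to 0.159 and others at -0.146 to 0.00622, a hint of pairing from the data, while the labels do not say what the numbers link. In spleen CD8, 1 member was called lower with no filter. In WT spleen 2 members were lower in CD8 cells by DESeq2, by limma voom and with the 5 CPM filter, and 1 was higher by limma voom and with the replicate block. In WT thymus 1 member, Mbnl1, was higher in CD4 SP by limma voom, with no filter and with the replicate block. The spleen interaction had 383 calls, 637 by DESeq2, 844 with no filter and 1083 with the replicate block by animal, which changed no other count of member calls.

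Leaving out 1 library at a time gave 1 to 40 calls in thymus DP (0 to 1 member), 1 to 48 in thymus CD8 SP (0 to 1 member), 1085 to 2144 in spleen CD4 (0 to 1 member lower) and 1315 to 2298 in spleen CD8 (0 to 1 member lower). It gave 244 to 549 in the spleen interaction, 0 to 6 in the thymus interaction and 0 to 1 member in each direction in WT spleen. In WT thymus 0 to 1 member was higher and 2 to 3 were lower. The cause of these changes was not tested. With 3 libraries per genotype the precision is limited throughout; thymus CD4 SP totals were 11865646 to 22881226 counts, and their part in its wide intervals was not tested.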
